A study of Mus musculus with 10 samples.

Results

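Iron handling was followed through 10 genes in mouse skin: the 2 mouse hepcidin genes Hamp and Hamp2, and 8 genes that export, take up, carry, store or release iron (Slc40a1, Cp, Tfrc, Trf, Slc11a2, Fth1, Ftl1 and Hmox1). The genes were taken by name from 49671 gene identifiers, and all 10 passed the filter on low counts. Hepcidin was chosen by its wide spread of read counts between these same libraries, so Hamp and its near copy Hamp2 are described without a test, while the other 8 genes were tested. Whole skin came from 22-week-old mice, with 1 poly(A) RNA library per mouse. The NPYtet group held 5 mice homozygous for the Npytm2Rpa allele on the B6;129S4 background, an allele that the series title ties to overexpression of neuropeptide Y. The WT group held 5 wild-type siblings, and neither group was labelled with any further treatment. WT replicates 1 and 3 and NPYtet replicates 1, 3 and 4 were labelled female, and the other 5 mice were labelled male. Neither the skin site nor the promoter or cells that drive Npy from this allele are stated in the labels.

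Hepcidin is a small peptide hormone made mainly by the liver. It binds the iron exporter ferroportin (Slc40a1) on the cell surface, blocks it and causes its breakdown, so that iron stays inside cells. Bone morphogenetic proteins, which signal iron status, and interleukin 6, which signals inflammation, both raise hepcidin transcription in hepatocytes. Within cells, iron regulatory proteins bind a hairpin called the iron-responsive element when iron is scarce: in a 5′ UTR the element then blocks translation, and in the 3′ UTR of the transferrin receptor it protects the mRNA from decay. mRNA levels of ferritin and ferroportin therefore leave out a large part of their control. Skin holds iron in epidermal cells, dermal macrophages and blood, and loses some of it with shed keratinocytes.

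The hairpins were searched because they divide these genes by the direction of their control. The pattern was a C, 5 bases, the loop CAGTGN and 5 bases that pair with the first 5, with G-U pairs allowed, and it was read in the annotated UTRs of GENCODE M21 (GRCm38). Fth1, Ftl1 and Slc40a1 each held 1 match in the 5′ UTR, and Tfrc held 4 in the 3′ UTR. The loop is in capitals.
Fth1, 5′ UTR, chr19:9982738-9982754, plus strand: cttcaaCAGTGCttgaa
Ftl1, 5′ UTR, chr7:45459785-45459801, minus strand: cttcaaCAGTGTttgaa
Slc40a1, 5′ UTR, chr1:45925471-45925487, minus strand: cagctaCAGTGTtagct
Tfrc, 3′ UTR, chr16:32631225-32631241, plus strand: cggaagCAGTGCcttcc
Tfrc, 3′ UTR, chr16:32631604-32631620, plus strand: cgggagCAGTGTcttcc
Tfrc, 3′ UTR, chr16:32631669-32631685, plus strand: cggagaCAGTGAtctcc
Tfrc, 3′ UTR, chr16:32631716-32631732, plus strand: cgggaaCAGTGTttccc
The stems of the 2 ferritin genes are the same, and their loops differ at the last base. Among genes with a protein-coding transcript and an annotated UTR of that kind, 0.148% of 20916 held a match in a 5′ UTR and 0.613% of 21045 in a 3′ UTR. No match was found in the annotated UTRs of the other 6 genes. The pattern allows no unpaired or mismatched base among the 5 pairs, so elements of another form are missed. A gene without a match, such as Slc11a2, may therefore still hold an element, and Tfrc may hold more than 4.

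Hamp and Hamp2 lie near each other on chromosome 7 and are close copies, with 92.5% identity in the coding sequence and 89.7% over the 250 bases before the start. Their promoters are shown because both genes were read together in most of the libraries. The 150 bases before each RefSeq start (GRCm38.p6) follow, with matches to the core of a BMP-response element (GGCGCC) and to a STAT palindrome (TTCNNNGAA) in capitals. The last 3 bases of the Hamp stretch lie within its GENCODE transcript. The whole Hamp2 stretch lies within the GENCODE gene, in an intron of its longest transcript model, which starts further upstream than the RefSeq start.
Hamp, chr7:30944030-30944179, minus strand: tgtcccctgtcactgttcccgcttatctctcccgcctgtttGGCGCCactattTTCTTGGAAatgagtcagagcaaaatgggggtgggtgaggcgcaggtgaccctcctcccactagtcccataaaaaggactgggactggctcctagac
Hamp2, chr7:30924182-30924331, minus strand: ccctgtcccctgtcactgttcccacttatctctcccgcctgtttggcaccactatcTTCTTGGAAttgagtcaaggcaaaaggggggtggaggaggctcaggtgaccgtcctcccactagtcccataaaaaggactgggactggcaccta
Hamp held GGCGCC 109 bases before the start, and Hamp2 did not hold it in this window. The STAT palindrome was in both, 97 bases before the start of Hamp and 94 before that of Hamp2. On either strand of the 250 bases, 9.59% of 32851 RefSeq promoters held GGCGCC and 7.02% held TTCNNNGAA. The full palindrome of the estrogen-response element, held by 0.0639% of promoters, was in neither. The matches are letters in a sequence and not shown sites of binding.

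Libraries held 23209405 to 53357695 reads assigned to genes. The targeted gene Npy had 4 to 80 reads in WT and 3913 to 7686 in NPYtet libraries. Keratinocyte, fibroblast and endothelial markers were read in every library. One library went against its label: NPYtet replicate 1, labelled female, had 2 Xist and 1513 Ddx3y reads, while the other 4 labelled females had 14149 to 20177 Xist reads and no Ddx3y read. Sex below means the label. NPYtet replicate 5 stood apart by 9.265% mitochondrial reads, against 1.86% to 3.03% in the other 9, and WT replicate 2 and NPYtet replicate 5 had the fewest genes with a read, 21144 and 19953. Each p-value sets a difference against the spread between these mice. In whole tissue, fewer cells of a type and less RNA per cell cannot be told apart.

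Hepcidin mRNA was close to absent in some skins and readily counted in others. It differed between libraries by more than almost any other gene, which is the property it was chosen for. Levels are in CPM, read counts scaled to a common library size with TMM factors. Hamp (ENSMUSG00000050440, chr7:30942368-30944032) was at 1.65, 0, 3.79, 0.0828 and 0.0594 CPM in WT replicates 1 to 5 and at 0.271, 0.159, 10.6, 5.77 and 0 in NPYtet replicates 1 to 5. These levels came from 64, 0, 161, 5 and 2 reads in WT and 11, 5, 461, 252 and 0 reads in NPYtet. The libraries with the most reads were WT replicates 1 and 3 and NPYtet replicates 3 and 4, the 4 that were labelled female and had Xist reads. A count of 0 allows up to 3 reads.

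Hamp2 (ENSMUSG00000056978, chr7:30922372-30924681) was read more often than Hamp. It was at 5.91, 0.423, 12.6, 0.0497 and 0.742 CPM in WT replicates 1 to 5, from 229, 8, 534, 3 and 25 reads. In NPYtet replicates 1 to 5 it was at 3.47, 0.159, 20.5, 11.4 and 0.794 CPM, from 141, 5, 890, 500 and 12 reads. The same 4 libraries were highest, and NPYtet replicate 1 stood between them and the labelled males. Mouse hepcidin 2 is less well studied than hepcidin 1, and its part in iron control is not settled.

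The genotypes overlapped for both genes. Hamp averaged 1.12 ± 1.65 CPM in WT and 3.37 ± 4.74 in NPYtet (SD, n = 5 each), and the fitted log2 difference, with sex in the model, was 0.94 (SE 0.84). Hamp2 averaged 3.94 ± 5.38 CPM in WT and 7.28 ± 8.66 in NPYtet, with a fitted log2 difference of 0.28 (SE 0.66). The difference between means was smaller than the SD in NPYtet for both genes, but for Hamp it was larger than the SD in WT. Single libraries moved these values: with 1 library left out, the Hamp difference ran from 0.36 (without NPYtet replicate 3) to 1.31 (without NPYtet replicate 1). That of Hamp2 ran from -0.07 (without NPYtet replicate 3) to 0.62 (without WT replicate 5), and it was also below 0 without NPYtet replicate 5, at -0.04.

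The labelled sexes did not overlap for either gene. Hamp ranged from 0.271 to 10.6 CPM in 5 labelled females and from 0 to 0.159 in 5 labelled males, with sums of 949 and 12 reads. Hamp2 ranged from 3.47 to 20.5 CPM in labelled females and from 0.0497 to 0.794 in labelled males, with sums of 2294 and 53 reads. The fitted log2 differences, male minus female, were -5.64 (SE 0.92) for Hamp and -4.63 (SE 0.72) for Hamp2. Of all genes tested, 8.44% had labelled sexes that did not overlap and 5.38% were lower in every labelled male than in any labelled female, and the hepcidin genes were chosen for such a spread, so nothing is read from their place among them. Without NPYtet replicate 1 the labelled females ranged from 1.65 to 10.6 CPM for Hamp and from 5.91 to 20.5 for Hamp2, and 9.27% of genes were lower in every labelled male.

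**Figure D1:**
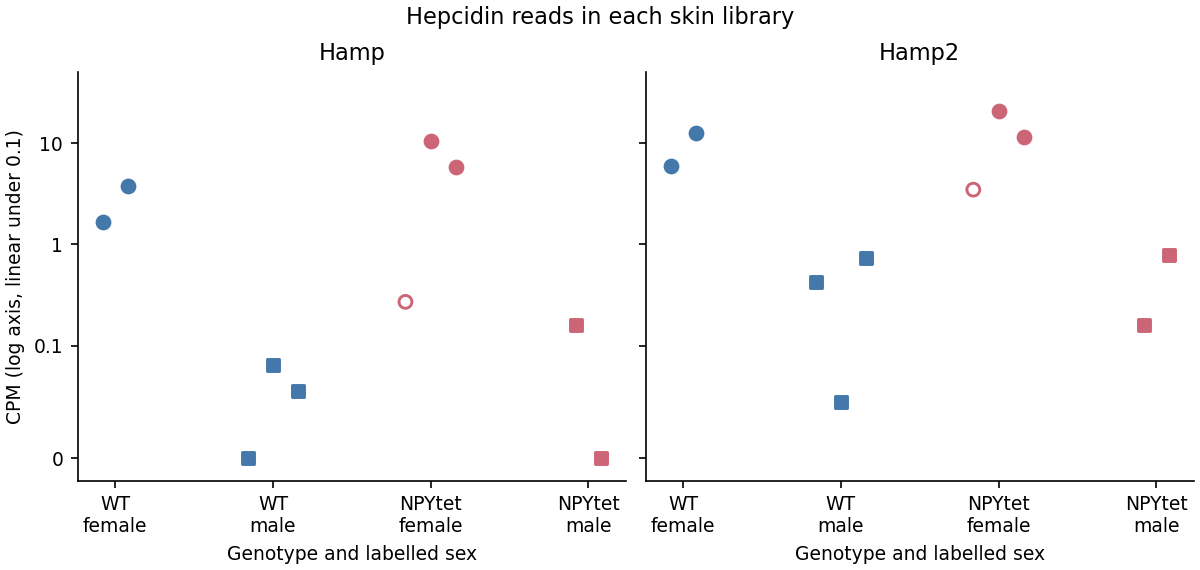
Level of Hamp (left) and Hamp2 (right) in CPM for each of 10 libraries, by genotype and labelled sex, on an axis that is logarithmic above 0.1 and linear below it. Circles are labelled females, squares labelled males, blue WT, red NPYtet, and the open circle is NPYtet replicate 1, the labelled female with Ddx3y reads. The 4 filled circles sit at 1.65 CPM or more for Hamp and 5.91 or more for Hamp2, above every square.

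Over the 10 libraries, the SD of log2 CPM was 2.87 for Hamp and 2.67 for Hamp2, larger than that of 99.1% and 98.9% of genes tested. Among the other 8 genes it ran from 0.49 for Tfrc, larger than 25.5% of genes, to 1.11 for Slc40a1, larger than 85.6%. Hepcidin thus stood apart from the genes it acts with in how far libraries differed, by the property it was chosen for.

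The share of hepcidin reads that came from Hamp also differed among the libraries with enough reads to estimate it. It was 21.8% (95% Wilson interval 17.5 to 26.9) and 23.2% (20.2 to 26.4) in WT replicates 1 and 3. In NPYtet replicates 3 and 4 it was 34.1% (31.6 to 36.7) and 33.5% (30.2 to 37.0), and in NPYtet replicate 1 it was 7.24% (4.09 to 12.5). The 2 WT intervals overlapped each other and lay below those of NPYtet replicates 3 and 4, and that of NPYtet replicate 1 lay below all 4. No test of genotype was made on these shares. Intervals and limits of this kind cover counting error only. Of the 75-base stretches of Hamp, 3.9% also occur in Hamp2, so most reads can be placed in one gene or the other.

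Hepatocyte transcripts were read at low levels in these skins. Across 8 hepatocyte markers the summed level was 1.46 to 20.6 CPM, 1.46 to 4.55 in WT and 1.72 to 20.6 in NPYtet. Alb, the main plasma protein of the liver, had 37 to 343 reads, Fgb had none in 6 libraries and Cyp3a11 none in 9. The highest sum, 20.6 CPM, was in NPYtet replicate 5, where Hamp had no read. The next 2, 10.8 and 7.12 CPM, were in NPYtet replicates 3 and 4, where Hamp was highest. Labelled females ran from 2.17 to 10.8 CPM and labelled males from 1.46 to 20.6, so the sexes overlapped for this sum. In NPYtet replicate 5 the sum was mostly Alb, with 292 reads, and no other marker there had more than 8. Fgb had 30, 10 and 3 reads in NPYtet replicates 3, 4 and 5 and 5 in WT replicate 3. The part of liver transcripts in the hepcidin values was not tested.

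By likeness across libraries, the genes closest to Hamp among 15170 genes with a mean of at least 1 CPM were Ccn3 (Pearson r = 0.976 over log2 CPM of 10 libraries), Stk10 (0.968), Cradd (0.962), Msrb2 (0.957) and Rxfp1 (0.956). Rxfp1, the relaxin receptor, was at 4.80 to 15.2 CPM in the 4 labelled females with Xist reads, 0.148 in NPYtet replicate 1 and at most 0.248 in labelled males. The most opposite were Tmem132e (-0.966), Defb8 (-0.956) and Gchfr (-0.95). Defb8, a defensin, was at no more than 0.0692 CPM in those 4 labelled females, 88.0 in NPYtet replicate 1 and 63.1 to 1800 in labelled males. Hamp2 came at rank 203 (r = 0.86) and Cp at rank 394 (r = 0.827). All these points share the same 10 libraries and the same split by labelled sex, and the coefficients are descriptions of it.

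Slc40a1 (ENSMUSG00000025993, chr1:45908068-45926523) encodes ferroportin, the only known cellular iron exporter and the target of hepcidin. It was at 163, 54.0, 31.6, 121 and 47.5 CPM in WT replicates 1 to 5 and at 28.6, 17.7, 34.3, 36.0 and 159 CPM in NPYtet replicates 1 to 5. WT replicates 1 and 4 and NPYtet replicate 5 were high, the other 7 lay at 54.0 CPM or below, and the genotypes overlapped. Means were 83.5 ± 56.2 CPM in WT and 55.2 ± 58.7 in NPYtet (SD, n = 5). The fitted log2 difference between genotypes was -0.66 (SE 0.60), with an adjusted p of 0.999 by edgeR's quasi-likelihood test. This value rested on single libraries: without WT replicate 1 it was 0.17, and without NPYtet replicate 5 it was -1.73 (edgeR adjusted p = 0.702).

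The libraries with high Slc40a1 were among those with growing hair. Summed over 8 markers of the growing follicle, WT replicates 1 and 4 and NPYtet replicate 5 stood at 18500, 12900 and 9600 CPM. WT replicates 2 and 5 stood at 20500 and 5850 CPM with Slc40a1 at 54.0 and 47.5, and the other 5 libraries at 7.55 to 1000 CPM with Slc40a1 at 36.0 or below. The part of hair growth in the Slc40a1 values was not tested. The genes with the most similar pattern to Slc40a1 were Tspan6 (r = 0.953 over 10 libraries), Chchd7 (0.945) and Trim59 (0.943). Macrophage markers, summed over 10 genes, were at 348 to 1080 CPM in WT and 785 to 1160 in NPYtet, and the lowest sum, 348 CPM, was in WT replicate 4, where Slc40a1 was high.

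Cp (ENSMUSG00000003617, chr3:19957054-20009145) encodes ceruloplasmin, the copper ferroxidase that helps ferroportin pass iron to transferrin. It was at 28.2, 7.46, 42.3, 17.2 and 8.34 CPM in WT replicates 1 to 5 and at 18.6, 17.3, 43.3, 47.0 and 26.0 in NPYtet replicates 1 to 5. The genotypes overlapped, at 20.7 ± 14.7 CPM in WT and 30.4 ± 13.9 in NPYtet (SD, n = 5), and the fitted log2 difference was 0.51 (SE 0.36, edgeR adjusted p = 0.999). The highest 4 values were those of the 4 libraries with the most hepcidin reads. Labelled females had 35.9 ± 12 CPM and labelled males 15.3 ± 7.62, a fitted log2 difference of -1.21 (SE 0.37, unadjusted p = 0.00506) that missed the threshold with an edgeR adjusted p of 0.0861. Without NPYtet replicate 1, labelled females ran from 28.2 to 47.0 CPM and labelled males from 7.46 to 26.0, with no overlap. Of all genes, 9.27% were lower in every labelled male than in any labelled female without that library. The log2 difference of Cp was then -1.36, lower in males with an edgeR adjusted p of 0.047. There 3.09% of all genes passed in edgeR, and 1.28% passed and were lower in males.

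**Figure D2:**
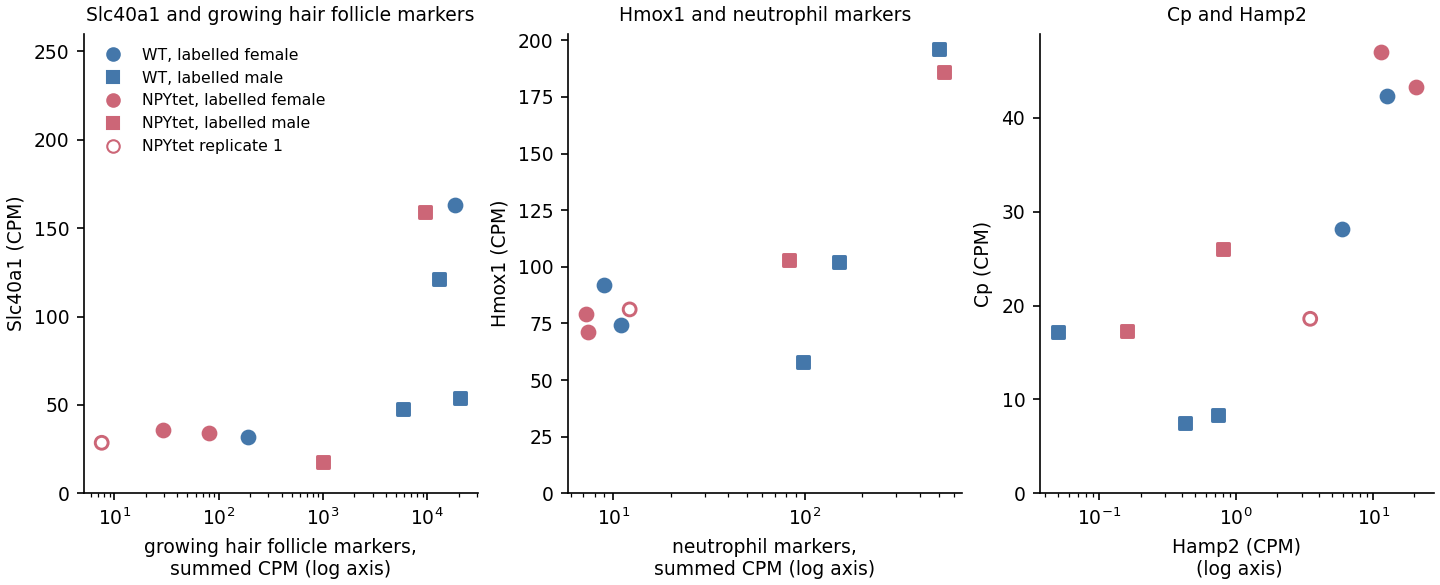
Each point is a library: Slc40a1 in CPM against the summed CPM of 8 growing hair follicle markers (left), Hmox1 against 8 neutrophil markers (middle) and Cp against Hamp2 (right), with logarithmic horizontal axes. Symbols and colours follow labelled sex and genotype, and the open circle is NPYtet replicate 1. Slc40a1 was above 100 CPM only among libraries with hair sums of 9600 or more, one of which (20500) had Slc40a1 at 54.0, the 2 highest Hmox1 values were at the 2 highest neutrophil sums, and the 4 highest Cp values at the 4 highest Hamp2 values.

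Tfrc (ENSMUSG00000022797, chr16:32608920-32632794), the receptor that brings transferrin-bound iron into cells, was among the steadiest of the genes. It was at 55.0, 46.5, 47.7, 93.4 and 37.4 CPM in WT replicates 1 to 5 and at 48.8, 90.6, 34.2, 42.5 and 64.8 in NPYtet replicates 1 to 5. WT replicate 4 and NPYtet replicate 2, both labelled male, were high, and the genotypes overlapped almost fully. The fitted log2 difference was 0.05 (SE 0.31, edgeR adjusted p = 0.999), and its sign changed with the settings. The difference between sexes was 0.55 (SE 0.31, edgeR adjusted p = 0.276).

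Slc11a2 (ENSMUSG00000023030, chr15:100387898-100425072) encodes DMT1, which moves ferrous iron across the apical membrane of the gut and out of endosomes. It was at 38.4, 115, 51.6, 50.9 and 81.6 CPM in WT replicates 1 to 5 and at 66.0, 78.5, 46.0, 50.8 and 43.2 in NPYtet replicates 1 to 5. WT replicate 2 was highest and WT replicate 1 lowest, so both ends of the range were in WT. The fitted log2 difference was -0.08 (SE 0.32, edgeR adjusted p = 0.999) between genotypes and 0.52 (SE 0.32, edgeR adjusted p = 0.323) between sexes.

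Trf (ENSMUSG00000032554, chr9:103204001-103230444) encodes transferrin, the plasma carrier of iron, which is made mostly by the liver. It was at 2.01, 4.86, 3.97, 2.78 and 2.23 CPM in WT replicates 1 to 5 and at 3.76, 1.34, 7.36, 5.50 and 3.97 in NPYtet replicates 1 to 5, from 42 to 319 reads. NPYtet replicates 2 and 3 marked the ends of the range, and the groups overlapped. The fitted log2 difference was 0.29 (SE 0.47, edgeR adjusted p = 0.999) between genotypes and -0.47 (SE 0.47, edgeR adjusted p = 0.547) between sexes. Its level is uncertain, since 78.6% of its 75-base stretches also belong to the overlapping gene model Gm20425 on the same strand, which had at most 1 read.

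Fth1 and Ftl1 encode the heavy and light chains of ferritin: the heavy chain oxidises iron and the light chain helps it settle in the core. Fth1 (ENSMUSG00000024661, chr19:9980598-9985098) was at 691, 1960, 1110, 809 and 1600 CPM in WT replicates 1 to 5 and at 1270, 1680, 1100, 949 and 825 in NPYtet replicates 1 to 5. Ftl1 (ENSMUSG00000050708, chr7:45457944-45459884) was at 75.2, 355, 110, 77.4 and 193 CPM in WT and at 166, 113, 129, 96.1 and 324 in NPYtet. Both chains were highest in WT replicate 2 and lowest in WT replicate 1. NPYtet replicate 5 was next to the top for Ftl1, with only WT replicate 2 above it, but near the bottom for Fth1, with only WT replicates 1 and 4 below it. The ratio of Fth1 to Ftl1 CPM was 5.51 to 10.5 in WT and 2.55 to 14.9 in NPYtet, with both ends of that wider range in labelled males, replicates 5 and 2. Ftl1 is an uncertain measure, since 69.9% of its 75-base stretches also occur in copies such as Ftl1-ps1.

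No ferritin difference passed the test. Between genotypes the fitted log2 difference was 0.04 (SE 0.37) for Fth1 and 0.28 (SE 0.42) for Ftl1, each with an edgeR adjusted p of 0.999. Labelled females averaged 1020 ± 218 CPM of Fth1 and labelled males 1380 ± 527 (SD, n = 5). The log2 difference was 0.44 (SE 0.37, edgeR adjusted p = 0.465). For Ftl1 the averages were 115 ± 34.4 and 212 ± 124 CPM, a log2 difference of 0.96 (SE 0.42, unadjusted p = 0.0388, edgeR adjusted p = 0.181).

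Hmox1 (ENSMUSG00000005413, chr8:75093621-75100589) encodes heme oxygenase 1, which frees iron from heme and is induced by oxidants and by heme itself. It was at 92.0, 196, 74.4, 57.8 and 102 CPM in WT replicates 1 to 5 and at 81.2, 186, 71.3, 79.3 and 103 in NPYtet replicates 1 to 5. WT replicate 2 and NPYtet replicate 2 were at about the same high level, and the other 8 libraries lay between 57.8 and 103 CPM in both genotypes. The fitted log2 difference was 0.09 (SE 0.33, edgeR adjusted p = 0.999) between genotypes and, between sexes, 0.71 (SE 0.33, edgeR adjusted p = 0.204). The same 2 libraries had the highest summed level of 8 neutrophil markers, 503 and 532 CPM, against 7.19 to 151 in the others. Labelled females ran from 7.19 to 12.2 CPM of these markers and labelled males from 82.7 to 532. The part of these cells in the Hmox1 and ferritin values was not tested. Red blood cell markers summed to 59.7 to 310 CPM in labelled females and 92.8 to 360 in labelled males.

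Compared per length, in CPM per kilobase of exon, ferritin dominated the set. The median over 10 libraries was 318 for Fth1, 90.1 for Ftl1 and 49.5 for Hmox1. The next level was far lower, at 8.07 for Slc11a2, 7.80 for Tfrc and 4.64 for Slc40a1. Hamp2 had a median of 3.65, Cp 2.33, Trf 1.16 and Hamp 0.524. The length used is that of all annotated exons of a gene merged, 9000 bases for Slc40a1 against 410 for Hamp. A single transcript can be shorter, so the order could change with another choice of length. The places of Ftl1 and Trf are also uncertain, because most of their 75-base stretches occur in other genes. Of the 9 neighbouring pairs in this order, only Hmox1 and Slc11a2 had ranges that did not overlap, 33.0 to 112 against 6.04 to 18.1 CPM per kilobase. In the 4 labelled females with Xist reads hepcidin 2 was no longer a low gene of the set, reaching 35.2 CPM per kilobase in NPYtet replicate 3, against 0.0852 in WT replicate 4.

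**Figure D3:**
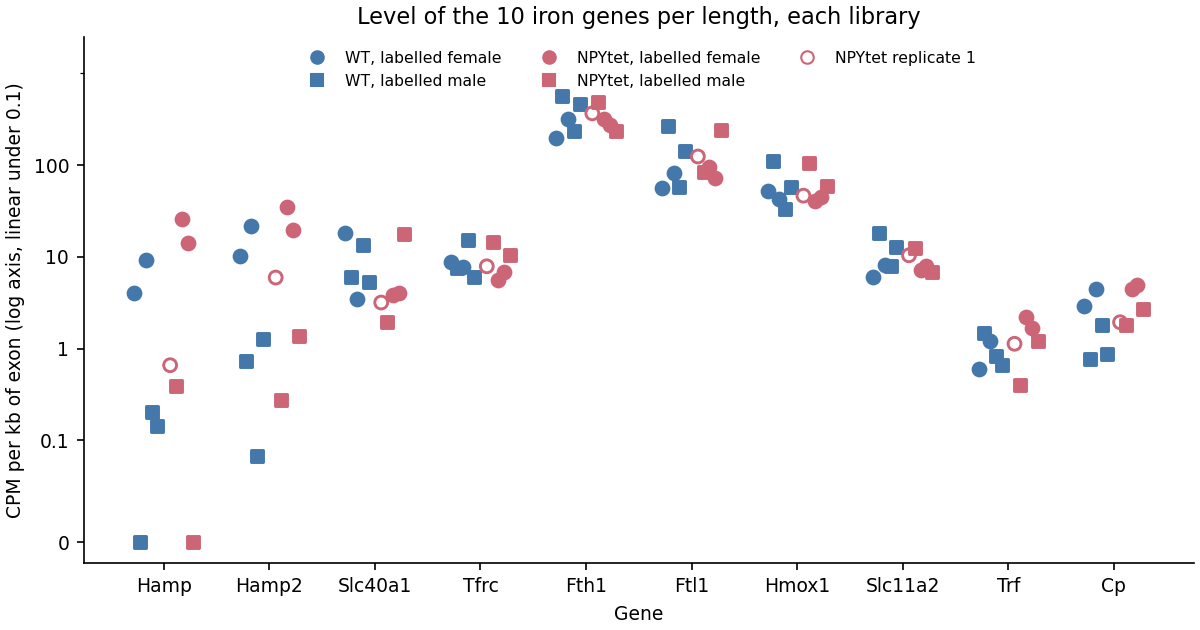
Level of each of the 10 genes per length, in CPM per kilobase of exon, in each of 10 libraries, on an axis that is logarithmic above 0.1 and linear below it. Symbols and colours follow labelled sex and genotype, and the open symbol is NPYtet replicate 1. Medians fall from 318 for Fth1 to 0.524 for Hamp, and the hepcidin genes span the widest range.

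Across genotypes, none of the 8 tested genes passed the threshold of an adjusted p of 0.05 in edgeR's quasi-likelihood test, and none had an unadjusted p under 0.05. Over all 18060 genes tested, 0.00554% passed, which was Npy alone, and 3.59% had an unadjusted p under 0.05. DESeq2 and limma-voom called none of the 8 either. The median fitted log2 difference of the 8 genes was 0.07, against -0.01 over all genes, with 6 above 0 and 2 below. When each genotype was fitted within each labelled sex, the genotype difference could not be shown to differ between the sexes for any of the 8 (edgeR adjusted p = 1 for each). There 0% of all genes passed and 1.63% had an unadjusted p under 0.05. With 5 mice a group, these results limit and do not exclude a difference: the fitted SEs ran from 0.31 for Tfrc to 0.60 for Slc40a1.

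Between the labelled sexes, none of the 8 genes passed the edgeR test and 2, Cp and Ftl1, had an unadjusted p under 0.05. Over all genes 2.48% passed and 24.6% had an unadjusted p under 0.05. DESeq2 called Cp (log2 difference -1.15, adjusted p = 0.0332), where 12.8% of all genes passed. Limma-voom with quality weights called 4, where 31.3% of all genes passed: Cp, Hmox1, Slc11a2 and Trf. The median log2 difference of the 8 genes was 0.52, against -0.07 over all genes. Without NPYtet replicate 1 only Cp passed in edgeR. The log2 differences were then 0.40 for Slc40a1, 0.61 for Tfrc, 0.67 for Slc11a2, -0.49 for Trf, 0.56 for Fth1, 1.11 for Ftl1 and 0.75 for Hmox1, with edgeR adjusted p from 0.149 for Ftl1 to 0.728 for Slc40a1.

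**Figure D4:**
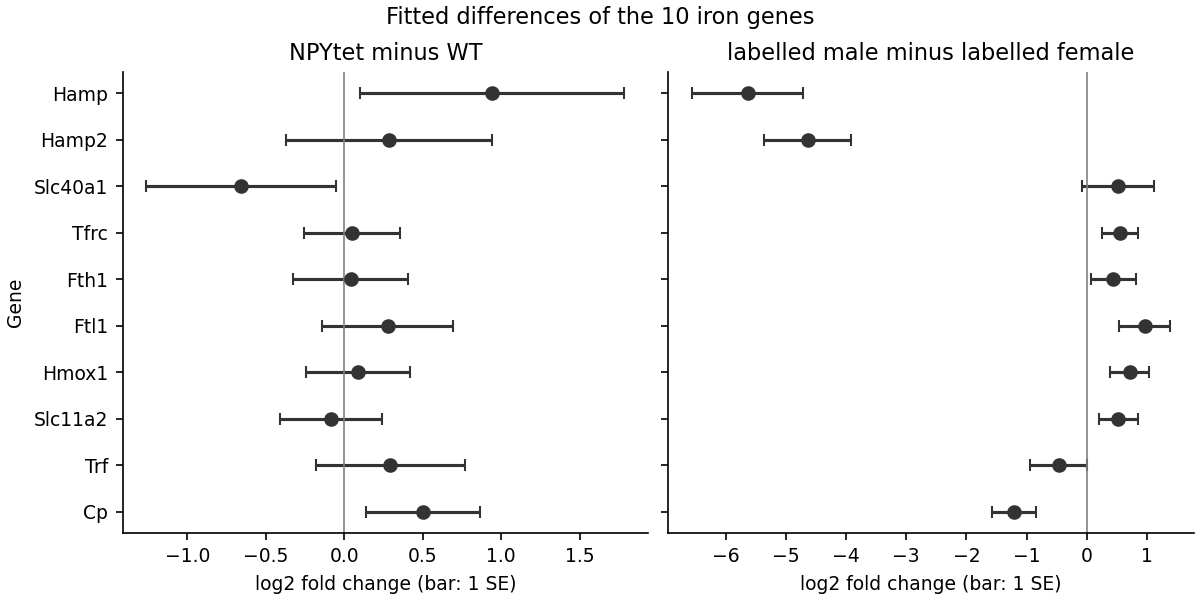
Fitted log2 fold change of the 10 genes, NPYtet minus WT (left) and labelled male minus labelled female (right), with bars of 1 SE. Points for the 8 tested genes lie within 2 SE of 0 on the left, and the 2 hepcidin genes, which were not tested, lie far to the left of the rest on the right, at -5.64 and -4.63.

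Genes that control or serve the same pathway were taken in 8 lists, 124 genes in all, of which 120 were tested. Between genotypes none of the 120 passed in edgeR, against 0.00554% of all genes, and 5 had an unadjusted p under 0.05, where 3.59% of all genes did. That number ran from 0 without WT replicate 1 to 9 without NPYtet replicate 2 or without NPYtet replicate 5, and was 3 without WT replicate 4. The number over all genes moved as well. In edgeR, 219 of 18311 genes had an unadjusted p under 0.05 without WT replicate 1. It was 625 of 18321 without WT replicate 4, against 649 of 18060 with all libraries. Above 0 lay 58 of the 120 genes and below 0 lay 62, with a median of -0.03 against -0.01 over all genes. The 5 list genes with an unadjusted p under 0.05 in edgeR with all libraries were Cybrd1, a ferric reductase (-2.02, SE 0.63), Slc39a8, a zinc and iron importer (-1.70, SE 0.57), Steap1, of the metalloreductase family (-1.47, SE 0.67), Slc25a37, the mitochondrial iron importer mitoferrin 1 (-1.25, SE 0.43), and Smad7, an inhibitor of BMP signals (-0.85, SE 0.32). Their adjusted p was 0.999 each. Cybrd1, at 31.6 and 43.9 CPM, Slc39a8, at 167 and 142, and Slc25a37, at 105 and 100, were highest in WT replicates 1 and 4, the 2 WT libraries with high Slc40a1. No gene of the 120 had genotypes that did not overlap, against 0.305% of all genes tested.

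Between the labelled sexes, 11 of the 120 passed in edgeR, 9 higher in males and 2 lower, where 1.36% of all genes were higher and 1.12% lower. An unadjusted p under 0.05 in edgeR was held by 35 of the 120, against 24.6% of all genes. For 14 of the 120 the labelled sexes did not overlap, against 8.44% of all genes. The list of interleukin 6 and its path, which raise hepcidin transcription in the liver, held 6 of the 9 that passed and were higher in males, among its 13 tested genes. Il6 itself was at 0.0922 to 0.353 CPM in labelled females and 1.19 to 15.1 in labelled males, a log2 difference of 4.49 (SE 0.71, edgeR adjusted p = 0.00751). Socs3, the feedback inhibitor of this path, was at 35.2 to 44.1 CPM in labelled females and 56.0 to 550 in labelled males, a difference of 2.66 (edgeR adjusted p = 0.0286). Il1b (2.71), Osm (2.94), Cebpb (1.78) and Cebpd (2.37) were also higher in labelled males and passed. Of the 13 genes, 8 lay above 0 and 5 below. Those below were Il6ra (-0.535), Il6st (-0.335), Jak1 (-0.29), Jak2 (-0.442) and Lif (-0.189), and none of them passed. The libraries with the most Il6 and Socs3 reads were among those with the fewest hepcidin reads, and they also had the higher neutrophil sums given above. Il6, Socs3, Hamp and Hamp2 each split by labelled sex without overlap, so this opposition restates that split. A link between Il6 and hepcidin in these skins was not tested.

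Of the 23 tested genes for BMP signals and iron sensing, 1 passed between the labelled sexes, where 2.48% of all genes did. An unadjusted p under 0.05 in edgeR was held by 6 of the 23, against 24.6% of all genes. Above 0 lay 13 of the 23 and below 0 lay 10. Id1, a target of BMP receptors, was at 33.2 to 65.3 CPM in labelled females and 68.2 to 212 in labelled males, a log2 difference of 1.53 (SE 0.33, edgeR adjusted p = 0.0309). Bmp6, the main BMP that carries iron status to hepcidin in the liver, averaged 9.66 ± 1.78 CPM in labelled females and 8.68 ± 2.83 in labelled males (SD, n = 5), and the sexes overlapped.

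Among 22 tested genes for other routes of iron uptake and transport, 3 passed, where 2.48% of all genes did. An unadjusted p under 0.05 in edgeR was held by 7 of the 22, against 24.6% of all genes. Lcn2, a protein of neutrophils and epithelia that binds bacterial iron carriers, was higher in labelled males, at 10.2 to 88.6 CPM against 2.17 to 5.71 (log2 difference 2.97, edgeR adjusted p = 0.013). Scara5, a ferritin receptor, was lower in them, at 44.4 to 107 CPM against 138 to 300 (-1.31, edgeR adjusted p = 0.0361). Cd163, the macrophage receptor for haptoglobin-bound hemoglobin, was also lower, at 14.4 to 80.0 CPM against 76.5 to 123 (-1.68, edgeR adjusted p = 0.0384). Macrophage markers summed to 643 to 1160 CPM in labelled females and 348 to 1040 in labelled males. Of the 10 NRF2 targets, Gsta4, a glutathione transferase, passed (3.87, edgeR adjusted p = 0.0112), and 4 had an unadjusted p under 0.05 in edgeR. No gene passed among those of iron storage and its regulators (9 tested), heme synthesis and mitochondrial iron (24), heme breakdown and export (10) or hypoxia (10), where 3, 4, 0 and 3 genes had an unadjusted p under 0.05, against 24.6% of all genes.

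The split between the sexes moved with other differences between these skins. Keratinocyte markers summed to 10700 to 20600 CPM in labelled females and 18200 to 61800 in labelled males. Fibroblast markers summed to 11000 to 12400 CPM in the 4 labelled females with Xist reads, 73700 in NPYtet replicate 1 and 30600 to 60900 in labelled males. The part of these cell types in the list results was not tested. Without NPYtet replicate 1, 11 of the 120 genes passed, 10 higher in males and 1 lower, where 3.09% of all genes passed. Scara5 was no longer among the 11 (edgeR adjusted p = 0.0578), and Hp, the plasma protein haptoglobin, had joined them (log2 difference 1.77, edgeR adjusted p = 0.0474).

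The count of list genes that passed between the sexes rested on single libraries. In the interleukin 6 list it fell from 6 to 1 without WT replicate 3, without NPYtet replicate 3 or without NPYtet replicate 4, to 2 without WT replicate 2 and to 3 without NPYtet replicate 2. With library totals alone it was 2. Over the 120 genes it fell to 2 without WT replicate 3, 3 without NPYtet replicate 3 or without NPYtet replicate 4, and 5 without WT replicate 2 or without NPYtet replicate 2. Over all genes, 58 of 18317 passed without WT replicate 3 and 209 of 18403 without WT replicate 2, against 448 of 18060. With any 1 library left out, the count over all genes ran from 58 to 2725, so it too rested on single libraries. The count over the 120 genes rose to 23 without WT replicate 4, where 14.9% of all genes passed. With both of the libraries with the fewest genes and NPYtet replicate 1 left out, 9 passed, 8 higher in males and 1 lower, where 5.08% of all genes passed. Il6 passed with any 1 library left out, with edgeR adjusted p between 0.00285 and 0.0351. Id1 reached an edgeR adjusted p of 0.132 and Scara5 0.167 without WT replicate 3. Scaling by library totals alone lowered the median sex difference of all genes from -0.07 to -0.46. Then 4 of the 120 genes passed, 3 higher in males and 1 lower, where 217 of all 18060 genes passed. The fitted differences of Il6, Id1 and Lcn2 stayed above 0 and those of Scara5, Cd163, Hamp and Hamp2 below 0 under that scaling.

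**Figure D5:**
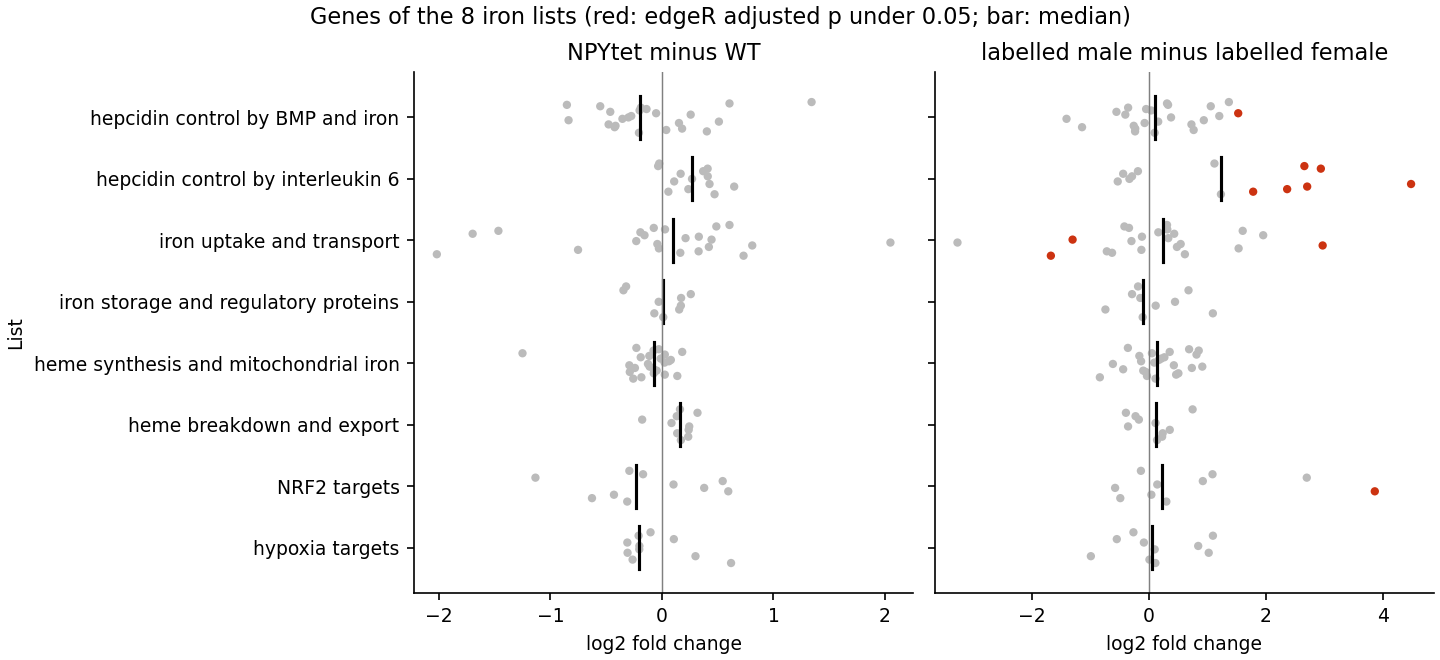
Fitted log2 fold change of each tested gene in 8 iron lists, NPYtet minus WT (left) and labelled male minus labelled female (right), 1 point per gene, with a bar at each list's median. Red points passed an edgeR adjusted p of 0.05: none of 120 on the left and 11 on the right, 6 of them in the interleukin 6 list.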

How the data were processed

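Poly(A) RNA of whole skin was sequenced from 10 mice (75-base paired reads, per the labels' protocols). The deposited values are whole-number counts of reads per gene, which the authors made from the reads. bcl2fastq, FastQC 0.11.8, Trimmomatic 0.36, STAR 2.5.2, DESeq2 1.30.1 and mm10 are named in the submitters' processing notes. For the authors' annotation release and strand setting, nothing is given in the sources used here. The count column that ignores strand was used, so reads of antisense genes cannot be told apart. On the opposite strand, Gm44662 shares 15.3% of the exonic bases of Hamp2, and Gm10252 shares 26.5% of those of Ftl1. How the reads of these shared stretches were counted was not tested.

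Identifiers were matched to GENCODE M21 (49412 of 49671). Genes were filtered with edgeR's filterByExpr (minimum count 10, minimum total 15), which kept 18060. They were fitted in 1 model with sex and genotype (edgeR 4.0.16, limma 3.58.1, R 4.3.3; TMM factors, robust quasi-likelihood). P-values were adjusted over all genes by Benjamini-Hochberg at 0.05. CPM were scaled by TMM, and log2 CPM used a prior count of 2. Intervals are 95% and limits for a count of 0 are 3 reads. Checked on simulated counts for the genotype comparison (18033 genes), the fit recovered 2 of 50 genes changed by 2-fold, 33 of 50 by 4-fold, 47 of 50 by 8-fold and 50 of 50 by 32-fold, with 7 false calls.

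The genes and lists were chosen with earlier results of these data known. Named genes are the 10 genes above, in each list those that passed and up to 4 with the smallest genotype p, and those most and least like Hamp, or most like Slc40a1, by Pearson r. Bmp6 and Hp were named after their values were seen. Alternatives were DESeq2 1.42.0, limma-voom, other scalings and filters, no sex term, a replicate block and libraries left out. Il22, Timd2 and Ftmt did not pass the filter and Hjv was not matched. Protein sequences are not used here.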

Additional observations from a re-analysis of the deposited data

Results flagged for a closer look

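A library far from the rest of its group was found in 3 of 40 groups checked (10 genes in WT, NPYtet, labelled females and labelled males), and chance alone gives about 1 in 20. Slc40a1 was at 159 CPM in NPYtet replicate 5, far above the other 4 NPYtet libraries. Slc40a1 was also at 163 CPM in WT replicate 1, far above the other 4 labelled females. Hmox1 was at 186 CPM in NPYtet replicate 2, far above the other 4 NPYtet libraries. The groups share libraries and are not independent checks.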

How the results depend on the processing

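Under 19 alternatives none of the 8 genes passed between genotypes, with 0 to 1 at an unadjusted p under 0.05, and none passed for genotype by sex where it was refitted. Genes called over the whole table between genotypes were 35 with DESeq2, 2 with limma-voom, 409 without the low-count filter, 0 in edgeR with 3 libraries left out together (NPYtet replicates 1 and 5 and WT replicate 2), and 1 to 8 with 1 library left out (8 without WT replicate 3), against 1. Between sexes they were 2316, 5648, 2380 and 949 under the same 4 settings, 217 with library totals alone (63 higher in males and 154 lower, against 246 and 202), and 58 to 2725 with 1 library left out (58 without WT replicate 3, 2725 without WT replicate 4), against 448. Of the 8 genes, those called between sexes were 1 with DESeq2, 4 with limma-voom, 1 without the filter, 1 without the 3 libraries (each time including Cp) and 0 to 1 with 1 library left out.

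Signs of small genotype differences changed. Tfrc was at -0.015 with limma-voom, -0.038 with library totals, -0.007 with the replicate block, -0.036 without the 3 libraries and -0.132 to 0.228 with 1 library left out. Slc11a2 was at 0.026 with limma-voom, 0.176 without the 3 libraries and -0.247 to 0.164 with 1 left out. Fth1 was at -0.083 without the sex term, -0.015 with the block and -0.135 to 0.286 with 1 left out. Hmox1 was at -0.005 without the sex term and -0.147 to 0.319 with 1 left out. Hamp2, not tested, ran from -0.074 to 0.622 with 1 left out. With 1 left out, Trf ran from -0.018 to 0.661 and Slc40a1 from -1.731 to 0.175. The sex difference of Slc40a1 was -0.164 with limma-voom, -0.476 without the 3 libraries and -0.531 to 1.348 with 1 left out. The cause was not tested.

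The replicate numbers did not pair the mice: same-numbered deviations correlated at -0.256 to 0.644, and no library correlated best with its own number. With the replicate block, 1 gene was called between genotypes and 0 of the 8 genes. The repeats for the gene lists were chosen after seeing the data. Hamp and Hamp2 rest on 0 to 25 reads in labelled males, where small differences were not detectable at this depth.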
